A study of Mus musculus with 3 samples.

Results

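MC3T3-E1 cells exposed to titanium (Ti) particles were compared with untreated cells of the same line by RNA-seq, across all genes that reached a level worth measuring in either library. MC3T3-E1 is a wild-type mouse preosteoblast line derived from calvaria, the roof of the skull. The untreated library (CTL) came from cells with no special treatment, and the Ti library from cells kept for 24 h with Ti particles at 10 μg/cm2. A further library, Ti+Se-Met, received the same particles together with 5 μM selenomethionine for 24 h, and its values enter only where the text says so. Of 15287 genes listed in the table, 11100 had an FPKM (fragments mapped to a transcript relative to its length and to all mapped fragments) of at least 1 in at least 1 of the 2 libraries. These genes are described below, with 10621 of them at 1 FPKM or more in both libraries, 319 in CTL alone and 160 in Ti alone. The question was which functions shift when preosteoblasts meet wear-type metal particles. Each condition had 1 library from 1 cell line grown without other bone or immune cells, so no value had a replicate check and no test across replicates could be run.

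Osteoblasts build bone by secreting type I collagen together with proteoglycans, periostin and other proteins that organise the fibres, and then mineralising that matrix. Metal particles shed from joint implants are taken up by or adhere to surrounding cells, and the loss of bone around implants that follows is called osteolysis. Cells meeting particles are known to engage stress programs, among them the amino acid response driven by the factor ATF4, the antioxidant response driven by NRF2, and the immediate early genes that build the AP-1 transcription factor.

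FPKM is a level per length of transcript, so levels of different genes can be set beside each other. Ratios are Ti over CTL. A log2 ratio is the difference in log2(FPKM + 1), where the added 1 makes the ratio of low genes smaller, and thresholds of 2-fold and 1.5-fold were applied on that scale. Folds and ratios in plain numbers are quotients of the FPKM values themselves. Their 95% intervals rest on fragment numbers estimated from the values, about 14250000 for CTL and 15100000 for Ti, and cover counting error only. They compare 2 libraries, not 2 conditions. In bulk RNA, fewer cells of a type and less RNA per cell cannot be told apart.

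The libraries carried the transcripts of an osteoblast lineage cell, with limits. Of 12 lineage markers, 8 reached 1 FPKM, and the most abundant were Col1a2 (2688 FPKM in CTL and 999 FPKM in Ti), Col1a1 (1333 FPKM in CTL and 354 FPKM in Ti) and Spp1 (1261 FPKM in CTL and 3706 FPKM in Ti). Runx2, the master factor of the lineage, stood at 26.8 FPKM in CTL and 17.1 FPKM in Ti. Alpl, the alkaline phosphatase of mineralising cells, was low in both libraries (1.51 FPKM in CTL and 0.20 FPKM in Ti). Sp7, the lineage factor that acts after Runx2, and the later markers Ibsp, Bglap and Pth1r stayed below 1 FPKM. Bglap2, a near-identical copy of the osteocalcin gene Bglap, was at 3.76 FPKM in CTL and 1.51 FPKM in Ti, and reads of the pair could have been split. Collagen, osteopontin and Runx2 thus matched an osteoblast lineage label, though type I collagen and osteopontin are also made by other cells. Sp7, which preosteoblasts also express, did not reach the filter, and markers of later stages were low or below it. Of markers of other cells, none of the 9 adipocyte and none of the 8 endothelial genes reached 1 FPKM. Among 14 macrophage and osteoclast markers only Lyz2 (26.7 FPKM in CTL and 14.8 FPKM in Ti) and Cd14 (5.70 FPKM in CTL and 16.6 FPKM in Ti) did, and the sum of that list was 32.7 FPKM in CTL and 31.8 in Ti. The chondrocyte list summed to 27.6 FPKM in CTL and 37.2 in Ti, nearly all of it Sox9 (24.9 FPKM in CTL and 36.2 FPKM in Ti). The skeletal muscle list summed to 1.90 and 0.64 FPKM and the epithelial list to 6.15 and 2.50 FPKM.

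Across the 11100 genes, 404 (3.64%) were at least 2-fold higher in Ti than in CTL and 405 (3.65%) at least 2-fold lower. At 1.5-fold, 1724 genes (15.5%) were higher and 1258 (11.3%) lower. These percentages are the background against which each list below is read. The median log2 ratio of all genes was 0.08, with quartiles of -0.29 and 0.42. The even split depended on the scaling. Bringing both libraries to an equal sum of values (TPM) left 230 higher and 863 lower, median-of-ratios scaling 274 and 487, and upper-quartile scaling 266 and 492. The FPKM values summed to 448285 in CTL and 526017 in Ti, and the TPM scaling shifted the median of all genes by -0.21 on the log2 scale. Gene lists are therefore given relative to the median of all genes. None of the 51 list medians moved by 0.2 or more under these 3 scalings, and every gene named with a direction keeps it under all 3 scalings unless the text says otherwise.

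**Figure D1:**
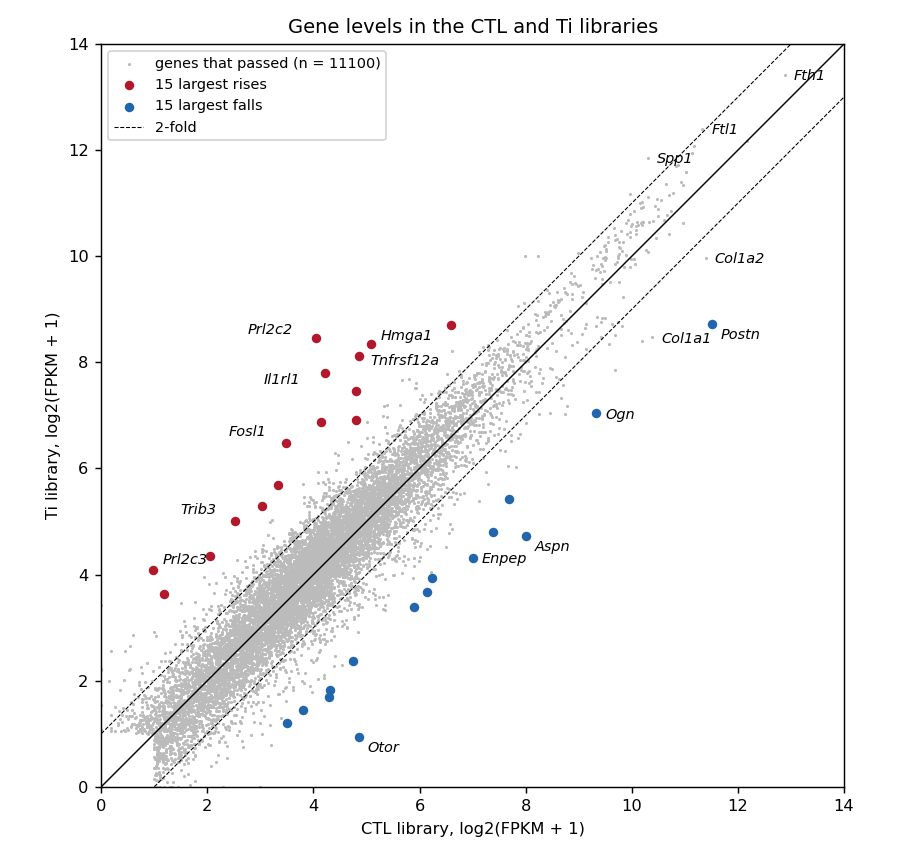
Level of each of the 11100 genes in the CTL library (horizontal axis) and the Ti library (vertical axis), both as log2(FPKM + 1), with the 15 largest rises in red, the 15 largest falls in blue, the solid line of equal levels and dashed lines at 2-fold. Most genes lie between the dashed lines, and Postn, Ogn and Aspn stand out as abundant genes far below the line of equal levels, while Prl2c2, Il1rl1, Hmga1 and Tnfrsf12a stand far above it.

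The size of the ratio moved with the length of the transcript and with the level of the gene, and this touches every list below. Genes with transcripts under 600 bases had a median log2 ratio of 0.48 (122 genes), those of 2000 to 2500 bases 0.14 (1295 genes) and those of 7000 bases or more -0.27 (708 genes). The order held without a break across the 10 bands of length. Of transcripts from 1000 to 1500 bases, 6.80% were 2-fold higher and 1.55% lower, while of those of 7000 bases or more 0.424% were higher and 6.50% lower. By level, the median went from -0.18 for genes with a mean of under 2 FPKM (836 genes) to 0.50 for the 67 genes at 1000 FPKM or more. Short transcripts are also often abundant, so the bands were crossed. Among genes at 10 to 50 FPKM, the median was 0.41 for transcripts under 1500 bases (716 genes), 0.18 for 1500 to 4000 bases (2844 genes) and -0.10 for longer ones (1624 genes), so the length trend was present at a fixed level. A level trend at fixed length was present among transcripts under 1500 bases, with medians of 0.16 under 10 FPKM, 0.41 at 10 to 50 FPKM and 0.48 at 50 FPKM or more, and among those of 1500 to 4000 bases, with 0.01, 0.18 and 0.20. Among longer ones the 3 medians were -0.17, -0.10 and -0.15, without an order by level. In Ti+Se-Met against the same CTL library the shortest and longest bands had medians of 0.32 and -0.24. The part of transcript length in the results below was not tested, and a median centred on genes of like length is given beside each list described whose median it moves by over 1.5 times.

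**Figure D2:**
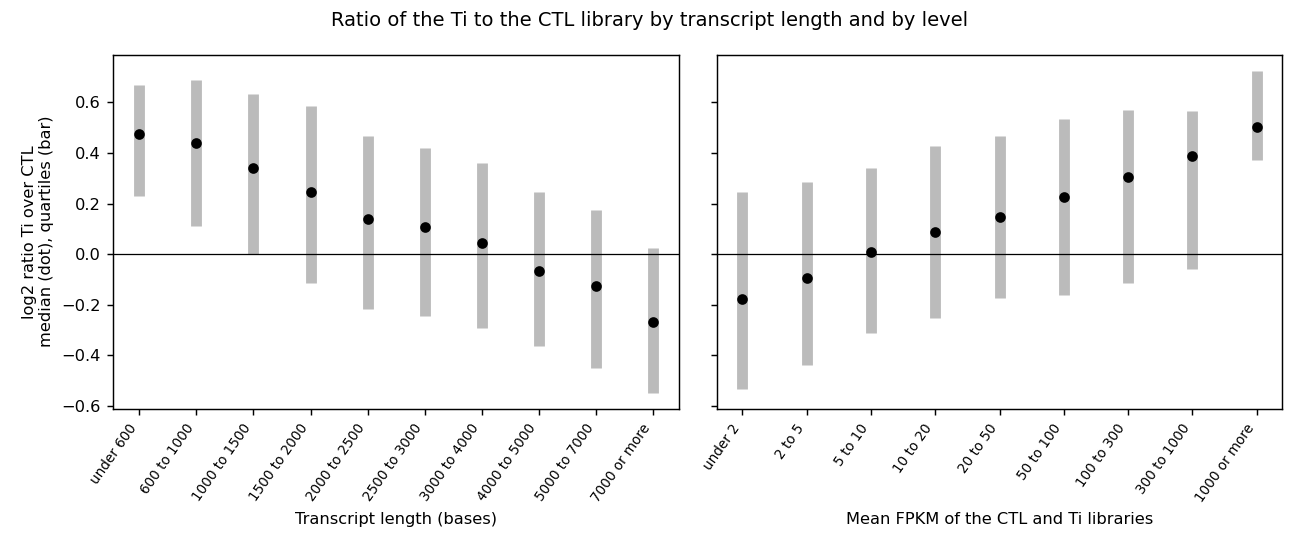
Log2 ratio of Ti over CTL for genes grouped by transcript length in bases (left) and by mean FPKM of both libraries (right), with dots for medians and bars for quartiles. The medians go down from 0.48 to -0.27 with length and up from -0.18 to 0.50 with level.

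Secreted growth regulators, receptors and chromatin proteins led the genes that were higher in Ti. Among 8795 genes with a mean of at least 5 FPKM, the 15 largest log2 ratios lay between 2.11 and 4.42. Prl2c2, a proliferin of the prolactin family, was at 15.5 FPKM in CTL and 351 FPKM in Ti (22.7-fold, 95% interval 19.2 to 26.8), and its relative Prl2c3 at 0.97 FPKM in CTL and 16.03 FPKM in Ti. Reads of these near-identical copies could have been split between them, so the level of each is uncertain. Prl2c3 passed the filter in Ti alone and so had to come out higher. Il1rl1, the receptor for interleukin 33, was at 17.6 FPKM in CTL and 222 FPKM in Ti (12.6-fold, 95% interval 11.7 to 13.6). Tnfrsf12a, the receptor for the cytokine TWEAK, was at 28.1 FPKM in CTL and 278 FPKM in Ti (9.88-fold, 95% interval 8.69 to 11.2). Both sit on the cell surface and bind cytokines. The chromatin proteins Hmga1 (33.1 FPKM in CTL and 324 FPKM in Ti, 9.79-fold, 95% interval 9.04 to 10.6) and Hmga2 (27.1 FPKM in CTL and 176 FPKM in Ti, 6.5-fold, 95% interval 6.15 to 6.88), which bend DNA and are abundant in growing embryonic cells, were both higher. Fosl1 and Junb, subunits of AP-1, were at 10.2 FPKM in CTL and 88.5 FPKM in Ti and at 9.12 FPKM in CTL and 50.4 FPKM in Ti.

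The remaining members of that set were kinases, enzymes and a replication factor. Sgk1, a kinase induced by serum and glucocorticoids, was at 16.6 FPKM in CTL and 117 FPKM in Ti (7.03-fold, 95% interval 6.45 to 7.68), and Prkg2, the membrane-bound kinase that responds to cyclic GMP, at 1.28 FPKM in CTL and 11.4 FPKM in Ti (8.94-fold, 95% interval 7.16 to 11.2). Trib3, a pseudokinase, and Asns, which makes asparagine, are both standard targets of ATF4 and were at 4.73 FPKM in CTL and 31.3 FPKM in Ti and at 26.9 FPKM in CTL and 119 FPKM in Ti. Cdt1, which licenses replication origins, was at 3.16 FPKM in CTL and 19.5 FPKM in Ti (6.17-fold, 95% interval 4.93 to 7.74). Gla, the lysosomal alpha-galactosidase, was at 7.13 FPKM in CTL and 38.02 FPKM in Ti, and Esd, an esterase of the glutathione-linked formaldehyde pathway, at 95.2 FPKM in CTL and 418 FPKM in Ti. All 15 stayed at least 2-fold higher with every pseudocount and scaling tried.

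The 15 largest falls held several secreted proteins of the matrix. Their log2 ratios lay between -3.92 and -2.27. Otor, a small secreted protein known from cartilage and the inner ear, was at 27.9 FPKM in CTL and 0.91 FPKM in Ti (ratio 0.0326, 95% interval 0.0167 to 0.0611). Otor passed the filter in CTL alone and so had to come out lower. Aspn, Omd and Ogn, small leucine-rich proteoglycans that sit on collagen fibres, were at 256 FPKM in CTL and 25.4 FPKM in Ti, at 18.8 FPKM in CTL and 2.52 FPKM in Ti and at 644 FPKM in CTL and 130.4 FPKM in Ti. Postn, which links collagen fibres and was the third most abundant transcript of CTL, was at 2904 FPKM in CTL and 419.5 FPKM in Ti (ratio 0.144, 95% interval 0.142 to 0.147) and ranked 164th in Ti. Col8a1, a short-chain collagen, was at 73.9 FPKM in CTL and 14.2 FPKM in Ti, Abi3bp, a matrix protein that cells adhere to, at 166 FPKM in CTL and 26.9 FPKM in Ti, and Sned1 at 25.7 FPKM in CTL and 4.16 FPKM in Ti. Npnt, an integrin ligand of basement membranes, was at 18.5 FPKM in CTL and 2.23 FPKM in Ti (ratio 0.12, 95% interval 0.0969 to 0.15). The set thus held both fibre-bound proteins and adhesion ligands.

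The others were of mixed kinds. Enpep, the aminopeptidase that trims angiotensin, was at 127 FPKM in CTL and 18.9 FPKM in Ti (ratio 0.149, 95% interval 0.14 to 0.158). Pappa2, a protease that frees insulin-like growth factors from a binding protein, was at 205 FPKM in CTL and 41.7 FPKM in Ti (ratio 0.203, 95% interval 0.198 to 0.209). Apod, a lipid carrier, was at 58.3 FPKM in CTL and 9.47 FPKM in Ti, and Fmo1, a flavin-containing monooxygenase, at 12.9 FPKM in CTL and 1.71 FPKM in Ti. S100b, a calcium-binding protein, was at 69.6 FPKM in CTL and 11.8 FPKM in Ti and Ecrg4, a secreted peptide precursor, at 10.3 FPKM in CTL and 1.29 FPKM in Ti. As with the rises, all 15 stayed at least 2-fold lower under each of those settings.

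**Figure D3:**
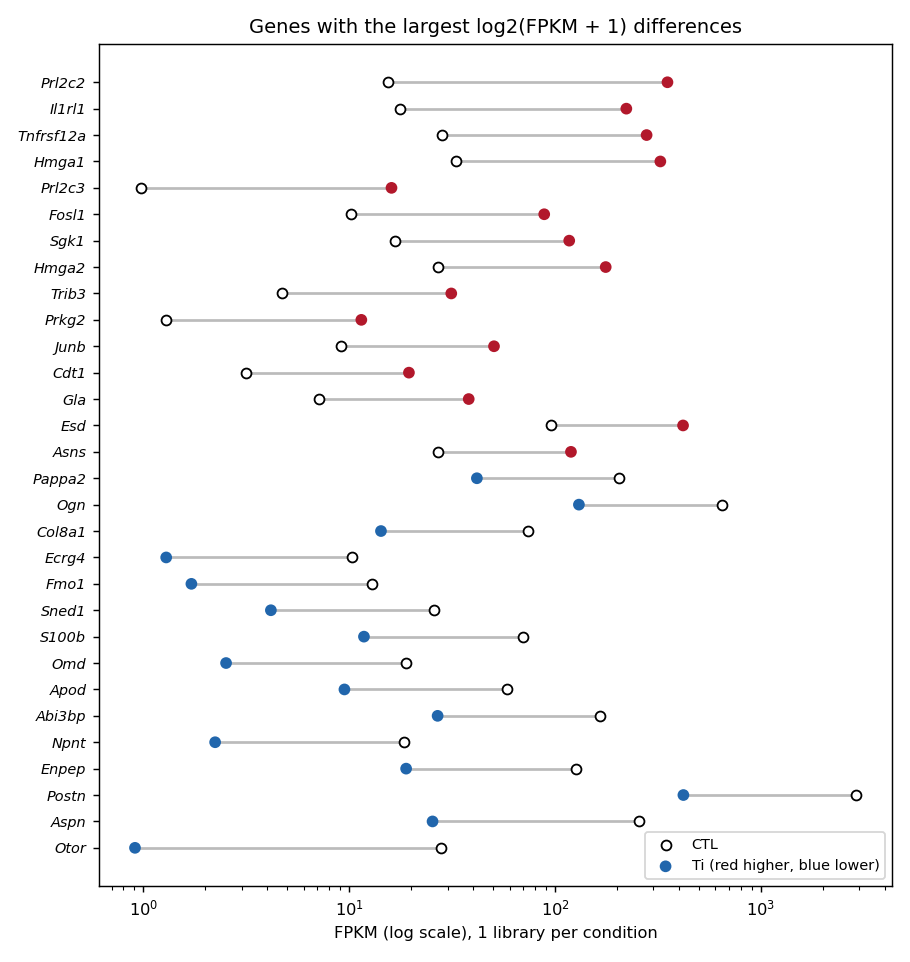
FPKM on a log scale in the CTL library (open circles) and the Ti library (filled circles, red where higher and blue where lower) for the 15 largest rises and the 15 largest falls in log2(FPKM + 1). Prl2c2 goes from 15.5 to 351 FPKM and Otor from 27.9 to 0.91 FPKM.

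Promoters of the genes that differed most were searched for the letters of 4 short motifs, to set them beside the promoters of all genes. The table of RefSeq promoters (GRCm38.p6), which runs from 250 bases before to 50 bases after each start, held 12 of the 15 rises and 13 of the 15 falls. Letters of AP-1 (TGANTCA), of the cyclic AMP response element (CRE, TGACGTCA) and of the NF-Y box (CCAAT) were searched on both strands. So was a gapped pattern, TGA and GC at a fixed distance with any bases between. Its gap is longer than that in the core of the antioxidant response element. Matches of the gapped pattern thus do not count as matches of that element, which was not searched. An AP-1 match was present for 1 of the 12 rises (8.33%) and 0 of the 13 falls, against 5.99% of 8945 genes with a promoter. The gapped pattern matched 6 of 12 rises (50%) and 4 of 13 falls (30.8%), against 48.4% of all. NF-Y matched 4 of 12 rises and 6 of 13 falls, against 43.9%, and no CRE was in either set, against 3.73%. Over the larger sets, AP-1 letters were in 7.19% of the promoters of genes 2-fold higher and 10.8% of those of genes 2-fold lower, and CRE letters in 5.31% and 2.03%. AP-1 and gapped pattern matches overlapped in 0.861% of all genes. A match is only a match of letters and not evidence of a bound factor.

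The 250 bases before the start of Prl2c3, Tnfrsf12a and Aspn are shown, 5′ to 3′ on the strand of the gene. Prl2c3 holds the AP-1 match among the rises, Tnfrsf12a a match of the gapped pattern and Aspn, from the falls, an NF-Y match. Capitals mark the match, which starts 209 bases before the start of Prl2c3, 27 bases before that of Tnfrsf12a and 229 bases before that of Aspn. The windows are chr13:12800080-12800329 on the minus strand, chr17:23677450-23677699 on the minus strand and chr13:49544193-49544442 on the plus strand of GRCm38.p6.
Prl2c3: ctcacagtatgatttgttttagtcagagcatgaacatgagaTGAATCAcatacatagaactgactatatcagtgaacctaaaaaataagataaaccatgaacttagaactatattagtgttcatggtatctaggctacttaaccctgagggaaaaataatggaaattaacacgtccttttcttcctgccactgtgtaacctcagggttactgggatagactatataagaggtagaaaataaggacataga
Tnfrsf12a: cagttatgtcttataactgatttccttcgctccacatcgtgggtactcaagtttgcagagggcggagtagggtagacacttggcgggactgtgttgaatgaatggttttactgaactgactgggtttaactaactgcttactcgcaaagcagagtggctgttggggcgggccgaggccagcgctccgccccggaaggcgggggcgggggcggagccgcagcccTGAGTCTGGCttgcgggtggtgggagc
Aspn: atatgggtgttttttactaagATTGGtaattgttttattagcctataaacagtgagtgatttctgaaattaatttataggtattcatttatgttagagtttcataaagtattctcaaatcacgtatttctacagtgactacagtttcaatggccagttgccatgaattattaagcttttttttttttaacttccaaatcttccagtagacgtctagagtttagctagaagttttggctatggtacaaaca

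Measured by the amount of transcript, the library shifted from matrix to ferritin, osteopontin and the translation machinery. The largest gains in FPKM were in the ferritin chains Fth1 (7537 FPKM in CTL and 10930 FPKM in Ti) and Ftl1 (2575 FPKM in CTL and 5415 FPKM in Ti), which store iron, and in Spp1, the mineral-binding glycoprotein osteopontin, at 1261 FPKM in CTL and 3706 FPKM in Ti. The ribosomal protein genes Rps2, Rpl41, Rplp0 and Rps18 followed, along with Tpt1, the galectin Lgals1 (1002 FPKM in CTL and 2318 FPKM in Ti) and the glycolytic enzyme Gapdh (1594 FPKM in CTL and 2628 FPKM in Ti). Ribosomal protein and ferritin genes have many near-identical pseudogenes, and their levels depend on how such reads were placed. The largest losses were in Postn and the type I collagen chains Col1a2 (2688 FPKM in CTL and 999 FPKM in Ti) and Col1a1 (1333 FPKM in CTL and 354 FPKM in Ti). After these came the matricellular gene Ccn3 (1164 FPKM in CTL and 336 FPKM in Ti), the proteoglycans Dcn (823 FPKM in CTL and 232 FPKM in Ti) and Ogn, the smooth muscle actin Acta2 (906 FPKM in CTL and 408 FPKM in Ti), the interferon-responsive Ifi27l2a (818 FPKM in CTL and 366 FPKM in Ti), the actin-binding Tmsb4x (761 FPKM in CTL and 324 FPKM in Ti) and S100a4 (2008 FPKM in CTL and 1584 FPKM in Ti). Col1a1 went from rank 29 in CTL to rank 191 in Ti, and Spp1 from rank 33 to rank 6. The 10 most abundant genes of each library held 6.92% of the summed FPKM in CTL and 8.70% in Ti.

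By function, genes of growth held 21.6% of the summed FPKM in CTL and 26.2% in Ti, genes of stress responses 5.73% and 7.19%, and genes of metabolism 4.77% and 5.45%. Matrix genes held 5.82% and 2.96%, the osteoblast list 2.06% and 1.22%, and signalling genes 4.64% and 3.53%. The blocks share genes, and Postn, Omd, Col1a1 and Col1a2 count in both the matrix block and the osteoblast list, so these 2 falls are not separate. Degradation genes were at 3.75% and 4.11%, and immune genes at 1.68% and 1.61%. Within growth, the cytosolic ribosomal proteins alone held 16.3% in CTL and 20.3% in Ti. Their transcripts are short, and their median was 0.12 above all genes when centred on genes of like length. Within stress, the metallothionein and iron handling list, which includes Fth1 and Ftl1, held 2.36% in CTL and 3.22% in Ti. These shares thus rest in part on few abundant genes and were not adjusted for transcript length.

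**Figure D4:**
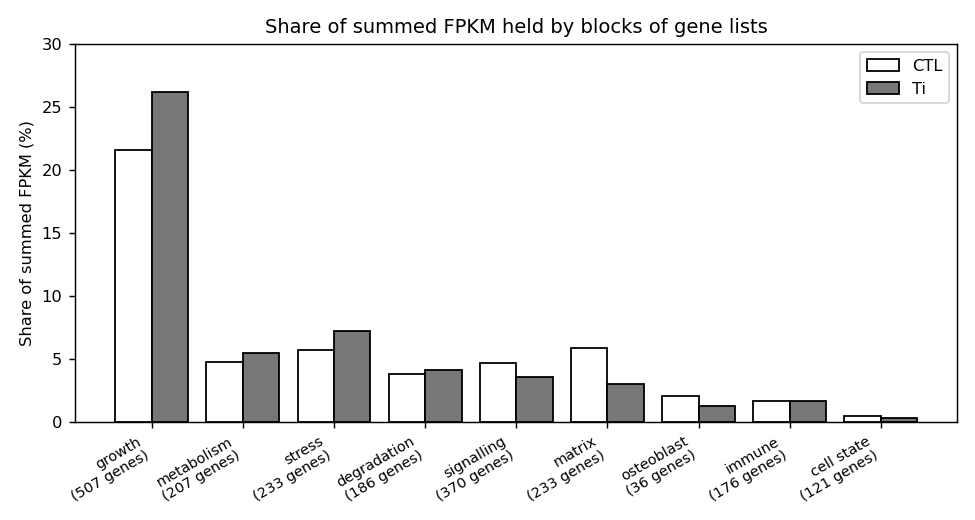
Share of the summed FPKM held by 9 blocks of gene lists in the CTL library (white bars) and the Ti library (grey bars), in percent. Growth genes take 21.6% and 26.2%, and matrix genes 5.82% and 2.96%.

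Genes that make ribosomes were higher nearly as a block. All 60 of 60 listed ribosome biogenesis genes, which transcribe, cut and fold ribosomal RNA, passed the filter, and their median log2 ratio was 0.83 above that of all genes. Of them 23 were 2-fold higher, 49 were 1.5-fold higher and none was 1.5-fold lower. Nhp2, a core protein of pseudouridine-adding particles, was at 20.3 FPKM in CTL and 77.05 FPKM in Ti (3.79-fold, 95% interval 3.31 to 4.37), Nop56, of the methylating particles, at 39.7 FPKM in CTL and 108 FPKM in Ti, Rrp9, which binds the U3 particle, at 6.50 FPKM in CTL and 19.3 FPKM in Ti and Noc4l at 7.37 FPKM in CTL and 19.4 FPKM in Ti. Myc, the factor that drives many of these genes, was at 14.01 FPKM in CTL and 33.7 FPKM in Ti (2.41-fold, 95% interval 2.15 to 2.71). The ribosomal proteins themselves differed by less. Of 78 cytosolic ones none reached 2-fold, 26 were 1.5-fold higher, and 77 lay above the median of all genes, by 0.43 in the median. Their transcripts are short, and centred on genes of like length the median was 0.12, whereas that of ribosome biogenesis was 0.79. Mitochondrial ribosomal proteins were 0.54 above all genes (44 of 78 were 1.5-fold higher), with Mrps18b at 28.9 FPKM in CTL and 84.5 FPKM in Ti and Mrpl38 at 18.6 FPKM in CTL and 52.8 FPKM in Ti.

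Translation factors followed, with a median of 0.47 above all genes and 21 of 45 at least 1.5-fold higher. The translation repressor Eif4ebp1, itself a target of ATF4, was at 60.1 FPKM in CTL and 195 FPKM in Ti (3.24-fold, 95% interval 3.07 to 3.43), Eif2b2, a subunit of the exchange factor for initiation factor 2, at 18.4 FPKM in CTL and 54.9 FPKM in Ti, and Eif6, needed for the large subunit, at 49.9 FPKM in CTL and 108 FPKM in Ti. Eif4a2 went the other way, at 246 FPKM in CTL and 151 FPKM in Ti. Splicing factors were mixed, with 17 of 56 1.5-fold higher and 4 lower, and a median of 0.32 that was 0.11 among genes of like length. Core spliceosome genes such as Sf3b4 (33.8 FPKM in CTL and 76.02 FPKM in Ti) and Snrpb (88.2 FPKM in CTL and 182 FPKM in Ti) were higher, while the RNA-binding regulators Hnrnph1 (152 FPKM in CTL and 60.1 FPKM in Ti) and Srsf7 (64.7 FPKM in CTL and 40.1 FPKM in Ti) were lower.

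Replication genes were higher and mitotic genes less so. The 60 replication and G1/S genes that passed had a median of 0.65 above all genes, 40 were 1.5-fold higher and none lower. Of the 60, 1 passed in Ti alone and so had to come out higher. Among the 59 that passed in both libraries, 39 were 1.5-fold higher. Beside Cdt1, the chromatin assembly factor Chaf1b was at 4.03 FPKM in CTL and 14.6 FPKM in Ti, the replicative helicase subunit Mcm7 at 17.7 FPKM in CTL and 51.05 FPKM in Ti (2.88-fold, 95% interval 2.65 to 3.14) and Mcm10, which helps to activate that helicase, at 1.80 FPKM in CTL and 6.67 FPKM in Ti. Of 68 mitosis and spindle genes 26 were 1.5-fold higher (median 0.33), led by Mybl2 (1.17 FPKM in CTL and 4.15 FPKM in Ti) and the kinase Plk1 (11.1 FPKM in CTL and 26.2 FPKM in Ti). The long motor and kinetochore genes Cenpe (6.93 FPKM in CTL and 5.17 FPKM in Ti) and Cenpf (5.45 FPKM in CTL and 4.32 FPKM in Ti) were lower. Cyclins, their inhibitors and the Rb family lay at the median of all genes (0.04, with 3 of 21 higher and 2 lower at 1.5-fold). Within that list the inhibitor Cdkn1a was higher (154 FPKM in CTL and 253 FPKM in Ti), and Cdkn1b (82.5 FPKM in CTL and 50.8 FPKM in Ti), Cdkn2c (68.6 FPKM in CTL and 46.8 FPKM in Ti) and Rb1 (11.2 FPKM in CTL and 7.35 FPKM in Ti) were lower.

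The amino acid response was higher as a group. Of 26 genes for ATF4 targets and amino acid synthesis, 10 were 2-fold and 17 1.5-fold higher and none was 1.5-fold lower, with a median 0.74 above all genes. Of the 26, 1 passed in Ti alone and so had to come out higher. Among the 25 that passed in both libraries, 10 were 2-fold and 16 were 1.5-fold higher, at a median of 0.71. Beside Trib3 and Asns, the stress regulator Nupr1 was at 31.1 FPKM in CTL and 116 FPKM in Ti (3.73-fold, 95% interval 3.28 to 4.25) and the factor Cebpb at 39.01 FPKM in CTL and 144 FPKM in Ti (3.68-fold, 95% interval 3.4 to 4). All 22 genes of the list of aminoacyl-tRNA synthetases, the enzymes that charge tRNAs, with their partner proteins Aimp1 and Aimp2, lay above the median of all genes. They did so by 0.76 in the median, and 17 were 1.5-fold higher. Aars was at 48.9 FPKM in CTL and 146 FPKM in Ti (2.99-fold, 95% interval 2.88 to 3.1), Sars at 62.95 FPKM in CTL and 157 FPKM in Ti, Mars1 at 40.8 FPKM in CTL and 101 FPKM in Ti and Wars at 17.7 FPKM in CTL and 43.8 FPKM in Ti. The chaperone side of the unfolded protein response, which shares upstream sensors with ATF4, was not higher with these genes. Its 28 genes had a median of -0.16, with 2 higher and 4 lower at 1.5-fold. The endoplasmic reticulum chaperones Hsp90b1 (685 FPKM in CTL and 354 FPKM in Ti), Calr (429 FPKM in CTL and 273 FPKM in Ti), Pdia3 (322 FPKM in CTL and 208 FPKM in Ti) and Pdia4 (83.7 FPKM in CTL and 55.3 FPKM in Ti) were lower, while Ppp1r15a, the phosphatase subunit that restarts translation, was at 9.48 FPKM in CTL and 21.01 FPKM in Ti and Herpud1 at 19.8 FPKM in CTL and 35.05 FPKM in Ti.

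Antioxidant genes lay above all genes in the median. Of 43 NRF2 targets and antioxidant enzymes 10 were 2-fold higher and 1 lower, and 21 were 1.5-fold higher (median 0.46), while 37 lay above the median of all genes. Of the 43, 1 passed in Ti alone and so had to come out higher. Among the 42 that passed in both libraries, 9 were 2-fold and 20 were 1.5-fold higher. Hmox1, which breaks down heme, was at 54.8 FPKM in CTL and 204 FPKM in Ti (3.72-fold, 95% interval 3.48 to 3.97), the cargo receptor Sqstm1 at 299 FPKM in CTL and 1024 FPKM in Ti (3.42-fold, 95% interval 3.34 to 3.5), the thioredoxin reductase Txnrd1 at 65.2 FPKM in CTL and 166 FPKM in Ti and the small Maf protein Maff at 1.83 FPKM in CTL and 10.1 FPKM in Ti. The gene past 2-fold in the other direction was the glutathione transferase Gstm1, at 256 FPKM in CTL and 115 FPKM in Ti (ratio 0.449, 95% interval 0.425 to 0.474). In iron and metal handling, Slc39a14, a zinc and iron importer, was at 12.3 FPKM in CTL and 25.7 FPKM in Ti and the metallothionein Mt1 at 117 FPKM in CTL and 179 FPKM in Ti, beside the ferritin chains above. Ireb2, which represses ferritin translation in low iron, was at 18.04 FPKM in CTL and 11.7 FPKM in Ti.

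Genes of damage and death responses did not move as a block. The p53 targets had a median of 0.17 with 8 of 28 higher and 4 lower at 1.5-fold. Phlda3 was at 139 FPKM in CTL and 293 FPKM in Ti and Trp53 itself at 48.5 FPKM in CTL and 92.3 FPKM in Ti, while Mdm4, an inhibitor of p53, was at 35.4 FPKM in CTL and 9.81 FPKM in Ti (ratio 0.277, 95% interval 0.253 to 0.303) and Sesn1 at 50.6 FPKM in CTL and 18.1 FPKM in Ti. Cell death genes lay at the median of all genes (4 of 36 higher and 6 lower). Txnip, which binds thioredoxin, was at 19.6 FPKM in CTL and 42.5 FPKM in Ti and the necroptosis kinase Ripk3 at 5.94 FPKM in CTL and 11.9 FPKM in Ti. The inhibitors of apoptosis Birc2 (22.7 FPKM in CTL and 7.41 FPKM in Ti), Birc3 (9.78 FPKM in CTL and 4.75 FPKM in Ti) and Xiap (17.8 FPKM in CTL and 10.4 FPKM in Ti) were all lower. So was Bmf, which promotes apoptosis (3.61 FPKM in CTL and 1.05 FPKM in Ti). Heat shock proteins and the chaperonin lay 0.36 above all genes, with 7 of 31 1.5-fold higher (22.6%, against 15.5% of all genes) and 2 lower. The 2 lower were Dnajb4 (36.3 FPKM in CTL and 18.6 FPKM in Ti) and Cryab (109 FPKM in CTL and 65.7 FPKM in Ti). The mitochondrial chaperone Hspa9 was at 167 FPKM in CTL and 298 FPKM in Ti and the abundant Hspa8 at 750.3 FPKM in CTL and 1227 FPKM in Ti, whereas the stress-induced Hspa1b was at 31.6 FPKM in CTL and 20.9 FPKM in Ti.

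Among metabolic lists, nucleotide supply lay highest and cholesterol synthesis lowest. The 33 genes of the pentose phosphate path, folate-linked carbon transfer and nucleotide synthesis were 0.60 above all genes, with 18 1.5-fold higher and none lower. Shmt2, Psph, Psat1, Phgdh and Mthfd2 are also on the ATF4 list, so the 2 lists are not separate. Shmt2, the mitochondrial serine enzyme, was at 38.5 FPKM in CTL and 126 FPKM in Ti (3.28-fold, 95% interval 3.07 to 3.51), Psph, which makes serine, at 15.6 FPKM in CTL and 40.5 FPKM in Ti and the purine enzyme Atic at 36.6 FPKM in CTL and 86.5 FPKM in Ti. In glycolysis Hk2 was at 7.23 FPKM in CTL and 22.5 FPKM in Ti (3.11-fold, 95% interval 2.82 to 3.42) and Tpi1 at 458 FPKM in CTL and 729 FPKM in Ti, and the list median was 0.29. Respiratory chain and ATP synthase genes were 0.41 above all genes, and 0.09 among genes of like length, since most are short. Uqcrq was at 19.8 FPKM in CTL and 47.5 FPKM in Ti and Cyc1 at 46.2 FPKM in CTL and 96.2 FPKM in Ti, both of complex III. Tricarboxylic acid cycle genes stood near all genes (0.12), with Pcx (60.8 FPKM in CTL and 35.2 FPKM in Ti) and Idh2 (86.6 FPKM in CTL and 54.7 FPKM in Ti) lower. Cholesterol genes were at -0.24, with Hmgcs1 at 65.4 FPKM in CTL and 42.9 FPKM in Ti and Idi1 at 40.4 FPKM in CTL and 25.9 FPKM in Ti, and fatty acid genes at -0.09, with the elongase Elovl6 at 62.7 FPKM in CTL and 18.2 FPKM in Ti (ratio 0.291, 95% interval 0.275 to 0.307) and Acadm, which oxidises medium chains, at 95.9 FPKM in CTL and 43.03 FPKM in Ti.

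Protein degradation leaned towards the proteasome. Of 43 proteasome genes 21 were 1.5-fold higher and none lower, with a median of 0.51, or 0.32 among genes of like length. Psmd13 was at 43.9 FPKM in CTL and 97.02 FPKM in Ti and Psmb5, a catalytic subunit, at 109 FPKM in CTL and 217 FPKM in Ti, whereas Psmb9, the interferon-inducible subunit, was at 15.9 FPKM in CTL and 10.5 FPKM in Ti. Lysosomal genes lay near all genes (0.12, and 0.04 among genes of like length), with Ctsl (174 FPKM in CTL and 343 FPKM in Ti) and Ctsd (459 FPKM in CTL and 817 FPKM in Ti) higher. The autophagy median was 0.19, led by Sqstm1 and by Gabarapl1 (78.6 FPKM in CTL and 160.3 FPKM in Ti). Genes by which cells take up particles were not higher as a group, with a median of -0.05, or 0.04 among genes of like length, and 3 higher against 5 lower of 44. Snx9, which bends membranes during endocytosis, was at 47.4 FPKM in CTL and 84.2 FPKM in Ti, and the engulfment receptor Mertk at 15.9 FPKM in CTL and 3.11 FPKM in Ti (ratio 0.195, 95% interval 0.167 to 0.228).

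Immediate early and ERK output genes had medians of 0.77 and 0.80 above all genes, and of 0.37 and 0.57 with 5 instead of 1 added to each FPKM. All 26 immediate early genes passed, 9 were 2-fold higher, and 16 were higher against 1 lower at 1.5-fold. Of the 26, 3 passed in Ti alone (Fos, Nr4a3 and Atf3) and so had to come out higher. Among the 23 at 1 FPKM or more in both libraries, 8 were 2-fold higher and the median was 0.69. The orphan receptor Nr4a1 was at 3.11 FPKM in CTL and 13.2 FPKM in Ti (4.24-fold, 95% interval 3.43 to 5.32), while Zfp36l1, which destabilises messages, was at 49.4 FPKM in CTL and 30.4 FPKM in Ti. Among the AP-1 genes Fos was at 0.43 FPKM in CTL and 3.58 FPKM in Ti, Jun at 32.9 FPKM in CTL and 62.2 FPKM in Ti and Fosl2 at 42.2 FPKM in CTL and 42.1 FPKM in Ti. The ERK list passed with 25 of 30 genes, 11 of them 2-fold higher. Etv4, Dusp4 and Ereg passed in Ti alone and so had to come out higher, and among the 22 that passed in both libraries 8 were 2-fold higher, at a median of 0.72. The factor Etv4 was at 0.14 FPKM in CTL and 4.93 FPKM in Ti, and the phosphatases Dusp4 at 0.37 FPKM in CTL and 4.89 FPKM in Ti and Dusp5 at 2.39 FPKM in CTL and 10.2 FPKM in Ti, which switch off kinases of this pathway. Spred3, another inhibitor, was at 5.01 FPKM in CTL and 3.05 FPKM in Ti. Both lists share Fosl1, Egr1 and Ier3.

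Actin, adhesion and contractile genes lay below all genes in the median. Targets of YAP and of the serum response factor were at -0.25 (3 of 33 higher, 8 lower), with Ccn1 at 238 FPKM in CTL and 98.8 FPKM in Ti (ratio 0.416, 95% interval 0.397 to 0.435), Acta2 as above and Actg2 at 75.2 FPKM in CTL and 40.7 FPKM in Ti. Among the 31 targets that passed in both libraries, 2 were 1.5-fold higher and 8 lower. Actin and focal adhesion genes were at -0.21, with 4 of 59 higher and 8 lower at 1.5-fold, a share of 13.6% near the 11.3% of all genes. Among them were Itga1, a collagen receptor chain, at 6.59 FPKM in CTL and 1.95 FPKM in Ti, and Rnd3 at 182 FPKM in CTL and 80.01 FPKM in Ti. Rhoc (144 FPKM in CTL and 249.9 FPKM in Ti) and the capping protein Capg (96.4 FPKM in CTL and 162 FPKM in Ti) were higher. Of 42 contractile and calcium-handling genes only 10 passed. Of these, 7 passed in both libraries, none of them 1.5-fold higher and 6 lower. Des and Tnnt1 passed in CTL alone and so had to come out lower, and Myl4 in Ti alone. The median of the 10 was -1.21, or -0.69 with 5 added to each FPKM. The light chain kinase Mylk was at 14.7 FPKM in CTL and 2.44 FPKM in Ti (ratio 0.166, 95% interval 0.146 to 0.188), Tnnc1 at 36.8 FPKM in CTL and 10.9 FPKM in Ti and the calcium channel Cacna1g at 44.5 FPKM in CTL and 14.97 FPKM in Ti.

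Growth factor pathways held genes in both directions. In the TGF-beta and BMP list (median -0.38), the BMP antagonist Grem1 was at 40.97 FPKM in CTL and 125 FPKM in Ti (3.05-fold, 95% interval 2.91 to 3.2) and Tgfb1 at 10.98 FPKM in CTL and 24.96 FPKM in Ti, while the antagonist Chrd was at 6.79 FPKM in CTL and 2.01 FPKM in Ti, Tgfb2 at 10.8 FPKM in CTL and 4.28 FPKM in Ti and Id2 at 7.62 FPKM in CTL and 3.03 FPKM in Ti. Id1 went the other way, at 2.60 FPKM in CTL and 6.09 FPKM in Ti. Of the 32 genes of that list that passed, 7 were 1.5-fold higher and 10 lower. Among the 31 that passed in both libraries, 7 were higher and 9 lower. None of the 36 Wnt genes that passed was 1.5-fold higher and 10 were lower (median -0.41). The ligand Wnt10b was at 17.9 FPKM in CTL and 5.76 FPKM in Ti (ratio 0.321, 95% interval 0.269 to 0.38), the feedback gene Axin2 at 8.70 FPKM in CTL and 2.98 FPKM in Ti (ratio 0.343, 95% interval 0.288 to 0.406), the secreted modulator Sfrp2 at 34.6 FPKM in CTL and 11.2 FPKM in Ti and the co-receptor Lrp4 at 24.3 FPKM in CTL and 9.70 FPKM in Ti. In the insulin-like growth factor axis Igf1 was at 58.1 FPKM in CTL and 18.8 FPKM in Ti (ratio 0.323, 95% interval 0.295 to 0.354), Igf2 at 58.5 FPKM in CTL and 16.9 FPKM in Ti and the growth hormone receptor Ghr at 59.6 FPKM in CTL and 24.1 FPKM in Ti. That list's median was -0.25, and -0.05 among genes of like length. Vegfa, which attracts vessels, was at 31.2 FPKM in CTL and 94.4 FPKM in Ti (3.02-fold, 95% interval 2.79 to 3.27) and Fgfr1 at 109 FPKM in CTL and 185 FPKM in Ti, while Gas6, the ligand of Mertk, was at 229 FPKM in CTL and 93.8 FPKM in Ti (ratio 0.409, 95% interval 0.393 to 0.426), Fgfr2 at 35.4 FPKM in CTL and 14.7 FPKM in Ti and Egfr at 38.7 FPKM in CTL and 19.2 FPKM in Ti. Hes1, a Notch target, was at 2.35 FPKM in CTL and 8.07 FPKM in Ti, although Notch1 was at 19.7 FPKM in CTL and 9.61 FPKM in Ti. The guidance cue Sema3a, made by osteoblasts, was at 98.9 FPKM in CTL and 39.01 FPKM in Ti and Sema7a at 0.82 FPKM in CTL and 4.05 FPKM in Ti. Sema7a passed in Ti alone and so had to come out higher.

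Every collagen chain that passed lay below the median of all genes. Of 42 collagen genes 23 passed, 21 in both libraries and 2 (Col15a1 and Col24a1) in CTL alone, which had to come out lower. Of the 21, 10 were 2-fold and 16 were 1.5-fold lower, and none was 1.5-fold higher. The median was -1.05, and -0.84 when centred on genes of like length, since collagen transcripts are long. Col1a1 (ratio 0.266, 95% interval 0.262 to 0.269) and Col1a2 (ratio 0.372, 95% interval 0.368 to 0.375) form type I collagen. The minor fibrillar chain Col11a1 was at 11.2 FPKM in CTL and 2.53 FPKM in Ti (ratio 0.225, 95% interval 0.197 to 0.256) and Col24a1 at 5.34 FPKM in CTL and 0.69 FPKM in Ti. Enzymes that modify and crosslink collagen were lower by less (median -0.37, 6 of 27 at 1.5-fold). Adamts2, which trims procollagen, was at 29.1 FPKM in CTL and 12.3 FPKM in Ti and the hydroxylases P4ha3 at 72.5 FPKM in CTL and 31.6 FPKM in Ti and P4ha1 at 117 FPKM in CTL and 72.8 FPKM in Ti. Lox, the main crosslinking enzyme, was at 88.3 FPKM in CTL and 118 FPKM in Ti.

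Proteoglycans, elastic fibre and matricellular genes were lower in most but not all cases. Of 55 that passed, 22 were 2-fold lower and 1 higher, at a median of -0.85. Otor, Vtn and Tnxb passed in CTL alone, and of the 52 others 21 were 2-fold lower. The exception was Ccn5, a matricellular protein, at 96.2 FPKM in CTL and 295 FPKM in Ti (3.07-fold, 95% interval 2.92 to 3.22), whose relatives Ccn1 and Ccn3 were lower. Thbs2 was at 179.6 FPKM in CTL and 239.6 FPKM in Ti. Among proteases and inhibitors (median -0.44, and -0.25 among genes of like length), the inhibitor Timp1 was at 49.7 FPKM in CTL and 202 FPKM in Ti (4.07-fold, 95% interval 3.7 to 4.49) and Plaur, the urokinase receptor, at 5.95 FPKM in CTL and 19.1 FPKM in Ti, while the gelatinase Mmp9 was at 9.48 FPKM in CTL and 1.46 FPKM in Ti and Adamts1 at 72.9 FPKM in CTL and 15.5 FPKM in Ti (ratio 0.213, 95% interval 0.199 to 0.228). Glycosaminoglycan enzymes were balanced, with 6 of 37 higher and 7 lower. Among the 33 that passed in both libraries, 5 were higher and 7 lower. The sulphate transporter Slc26a2 was at 35.9 FPKM in CTL and 20.3 FPKM in Ti.

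The osteoblast list held genes in both directions. Of 25 that passed from 39, 6 were 1.5-fold higher and 11 lower, at a median of -0.45. Phospho1 and Dmp1 passed in Ti alone and Alpl in CTL alone, so their directions were set by the filter. Among the 22 that passed in both libraries, 4 were 1.5-fold higher and 10 lower. Spp1 was 2.94-fold higher (95% interval 2.89 to 2.98). Phospho1, a phosphatase that starts mineral formation, was at 0.99 FPKM in CTL and 6.52 FPKM in Ti, Dmp1, a mineral-binding matrix protein of osteocytes, at 0.45 FPKM in CTL and 3.64 FPKM in Ti (8.09-fold, 95% interval 4.8 to 14) and the vitamin D receptor Vdr at 10.3 FPKM in CTL and 22.1 FPKM in Ti. Postn, Omd, Col1a1 and Col1a2 had the lowest ratios. Cdh11, the cadherin of osteoblasts, was at 315 FPKM in CTL and 195 FPKM in Ti.

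Immune genes did not move in a common direction. The NF-kB and cytokine list had a median of 0.13, with 10 of 39 higher and 3 lower, out of 56 genes on the list. Of the 35 that passed in both libraries, 7 were higher and 2 lower. Ptgs2, the cyclooxygenase induced in inflammation, was at 6.10 FPKM in CTL and 13 FPKM in Ti (2.13-fold, 95% interval 1.89 to 2.41), Tnfaip2 at 11.3 FPKM in CTL and 25.4 FPKM in Ti and Lif at 1.41 FPKM in CTL and 3.76 FPKM in Ti. The chemokines Ccl5 (20.03 FPKM in CTL and 3.86 FPKM in Ti, ratio 0.193, 95% interval 0.116 to 0.312) and Cxcl10 (5.57 FPKM in CTL and 1.68 FPKM in Ti, ratio 0.302, 95% interval 0.178 to 0.48) were lower. Of 40 ligands and receptors of the TNF superfamily 17 passed (5 higher and 6 lower at 1.5-fold, median 0.41). Of the 17, 1 passed in CTL alone and so had to come out lower. Among the 16 that passed in both libraries, 5 were higher and 5 lower. Beside Tnfrsf12a the receptors Tnfrsf9 (17.8 FPKM in CTL and 45.3 FPKM in Ti) and Tnfrsf1b (8.58 FPKM in CTL and 20.4 FPKM in Ti) were higher, while Fas (15.9 FPKM in CTL and 8.25 FPKM in Ti) and Tnfrsf11b, the osteoclast inhibitor osteoprotegerin (13.6 FPKM in CTL and 8.38 FPKM in Ti), were lower. Interferon-stimulated genes were -0.47 relative to all genes, with 14 of 52 lower and 5 higher. The guanylate-binding proteins Gbp4 (12.7 FPKM in CTL and 2.97 FPKM in Ti) and Gbp6 (34.7 FPKM in CTL and 10.6 FPKM in Ti) and the GTPase Iigp1 (23.4 FPKM in CTL and 7.82 FPKM in Ti) were lower, and the membrane protein Ifitm3 (1266 FPKM in CTL and 2226 FPKM in Ti, 1.76-fold, 95% interval 1.71 to 1.8) was higher. Complement and coagulation genes were at -0.71, or -0.36 with 5 added to each FPKM, over 22 genes. Of these 17 passed in both libraries, 8 of them 1.5-fold lower and 4 higher. C1s1 was at 223 FPKM in CTL and 64.5 FPKM in Ti (ratio 0.289, 95% interval 0.276 to 0.301). The thrombin receptor Thbd on the same list was at 41.6 FPKM in CTL and 90.3 FPKM in Ti.

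Primary cilium genes were lower by a small step in the median (-0.27, 8 of 50 lower and none higher at 1.5-fold), with the transport gene Ift80 at 29.5 FPKM in CTL and 13.4 FPKM in Ti. The share lower, 16%, was near the 11.3% of all genes. Among the 48 cilium genes that passed in both libraries, 7 were lower. Clock genes were near all genes (-0.10), although Per3 (4.28 FPKM in CTL and 1.11 FPKM in Ti) and Tef (46.8 FPKM in CTL and 19.7 FPKM in Ti) were lower and Bhlhe40 (21.8 FPKM in CTL and 42.4 FPKM in Ti) higher. Hypoxia-responsive genes were at -0.16, with 2 of 20 higher and 2 lower, and Hif1a at 83.8 FPKM in CTL and 69.5 FPKM in Ti. Among the 19 hypoxia genes that passed in both libraries, 2 were higher and 1 lower. Nuclear pore and transport genes were 0.33 above all genes, led by Rcc1 (7.15 FPKM in CTL and 21.3 FPKM in Ti).

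**Figure D5:**
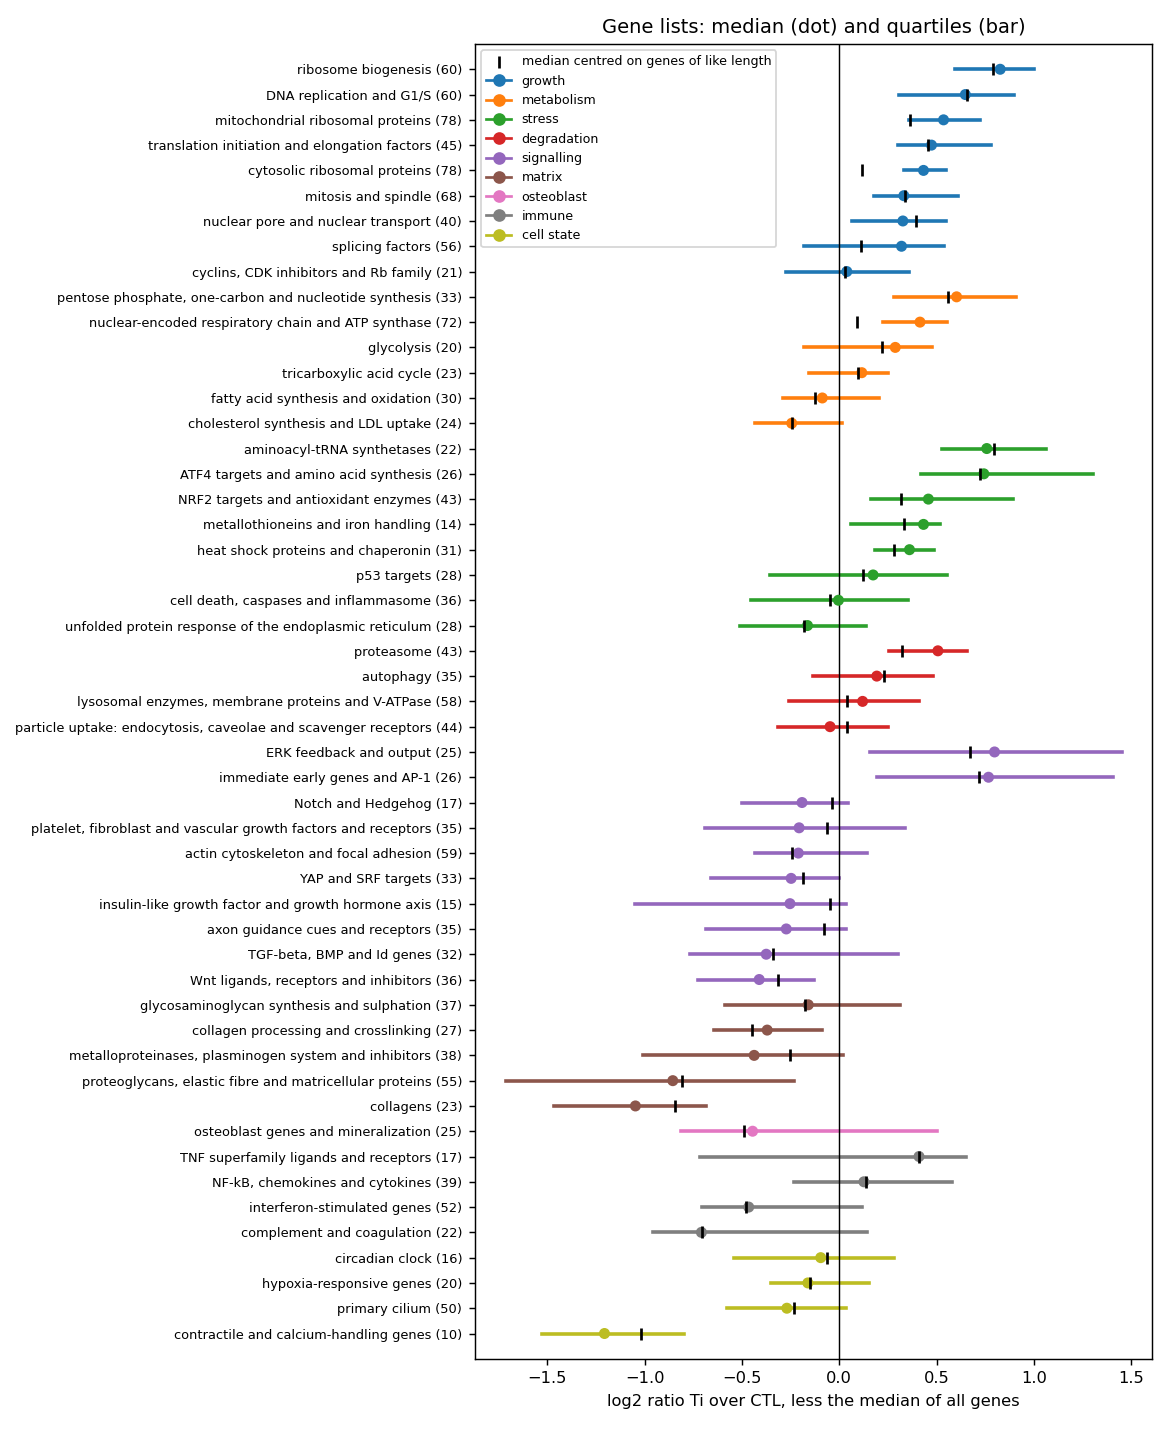
Median (dot) and quartiles (bar) of the log2 ratio of Ti over CTL, less the median of all genes, for 51 gene lists coloured by block, with the number of genes that passed in brackets and a black tick for the median centred on genes of like transcript length. Ribosome biogenesis, tRNA synthetases, ATF4 targets and ERK output lie near 0.8, and collagens and contractile genes below -1.0.

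The GO and KEGG terms that the table assigns to genes, other than those drawn by the study, gave a ranking by the median of their genes. Terms with 15 to 400 genes were ranked, 215 of KEGG, 1149 of GO process, 370 of GO function and 294 of GO component. More terms lay below than above the median of all genes in each kind, 151 against 64 in KEGG and 691 against 458 in GO process. Genes belong to many terms, so terms are not independent. Unlike the lists, terms were not also counted over genes that passed in both libraries. Their medians and counts can thus include genes whose direction was set by the filter, such as Col24a1 and Aldh1a1 below.

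At the upper end stood the machinery of replication and of RNA. The KEGG term DNA replication was 0.67 above all genes, with 21 of 34 genes 1.5-fold higher and none lower, among them Fen1, which trims replication primers (8.48 FPKM in CTL and 24.8 FPKM in Ti), Mcm2 (13.7 FPKM in CTL and 38.4 FPKM in Ti) and Mcm5 (5.67 FPKM in CTL and 16.8 FPKM in Ti). Ribosome biogenesis in eukaryotes was at 0.52 (38 of 72 genes 1.5-fold higher, 1 lower), with Tbl3 (14.1 FPKM in CTL and 38 FPKM in Ti) and Utp4 (14.02 FPKM in CTL and 32.4 FPKM in Ti). The term RNA polymerase was at 0.51 (14 of 27 higher), with Polr2e, shared by all 3 nuclear polymerases (50.1 FPKM in CTL and 120.2 FPKM in Ti), and Polr1c (47.03 FPKM in CTL and 104 FPKM in Ti). Pyrimidine metabolism was at 0.46 (37 of 79 higher, 2 lower), with Dctpp1 (10.9 FPKM in CTL and 27.9 FPKM in Ti) and Nme2 (229.6 FPKM in CTL and 532 FPKM in Ti). Among GO terms the small-subunit processome (0.68, 25 of 37 higher) and snoRNA binding (0.69, 14 of 20 higher) held Wdr46 (14.03 FPKM in CTL and 40.5 FPKM in Ti), Ddx21 (34.4 FPKM in CTL and 78.4 FPKM in Ti) and Gar1 (13.1 FPKM in CTL and 29.2 FPKM in Ti). The nuclear exosome, which degrades and trims RNA, was at 0.60 (9 of 15 higher), with Exosc6 (3.08 FPKM in CTL and 9.16 FPKM in Ti) and Exosc1 (11.2 FPKM in CTL and 26.4 FPKM in Ti). The SMN-Sm protein complex, which loads spliceosomal particles, was at 0.56, with Smn1 (8.95 FPKM in CTL and 19.7 FPKM in Ti) and Gemin6 (5.90 FPKM in CTL and 12.9 FPKM in Ti). Telomerase RNA binding was at 0.47, with Pinx1 (4.38 FPKM in CTL and 11.7 FPKM in Ti) and Smg5 (18.6 FPKM in CTL and 49.1 FPKM in Ti). Among genes of like length the medians of these terms lay between 0.29, for pyrimidine metabolism, and 0.69, for snoRNA binding.

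At the lower end stood matrix, adhesion and a few enzyme families. The function term for matrix constituents that give tensile strength was at -1.13, with 16 of 21 genes 1.5-fold lower, and its leading genes were collagens. Protein digestion and absorption (-0.71, 15 of 29 lower) was a KEGG term whose leading genes here were again Col1a1, Col24a1, Col11a1 and Col1a2, not digestive enzymes. Positive regulation of cell-substrate adhesion was at -0.62 (14 of 33 lower, 2 higher) and held Ptn, the growth factor pleiotrophin (429 FPKM in CTL and 129.7 FPKM in Ti, ratio 0.303, 95% interval 0.29 to 0.316), beside Npnt and Abi3bp. Scavenger receptor activity was at -0.79 (10 of 18 lower, 2 higher), with the scavenger protein Ssc5d (38.5 FPKM in CTL and 9.14 FPKM in Ti), the chemokine scavenger Ackr4 (15.6 FPKM in CTL and 4.27 FPKM in Ti) and Enpp2, which makes lysophosphatidic acid (17.7 FPKM in CTL and 5.50 FPKM in Ti). Basement membrane (-0.55, 22 of 66 lower, 5 higher) held Tnc (10.2 FPKM in CTL and 2.05 FPKM in Ti). Matrix binding (-0.61, 10 of 21 lower, 3 higher) held Sparcl1 (39.8 FPKM in CTL and 9.78 FPKM in Ti) and Cd248 (38.8 FPKM in CTL and 10.9 FPKM in Ti), and its 3 higher genes were all past 2-fold. Defense response to protozoan was at -0.91 (12 of 18 lower, 3 higher), and its leading genes were guanylate-binding proteins such as Gbp10 (7 FPKM in CTL and 1.30 FPKM in Ti) and Gbp8 (10 FPKM in CTL and 2.63 FPKM in Ti), which are near-identical copies in a gene cluster and whose levels are uncertain for that reason.

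Enzyme terms at that end were small. Retinol metabolism was at -0.45 (9 of 24 lower, 3 higher), with Aldh1a1, which makes retinoic acid (4.16 FPKM in CTL and 0.46 FPKM in Ti), and Aox1 (23.7 FPKM in CTL and 7.05 FPKM in Ti). Aldh1a1 passed in CTL alone and so had to come out lower. Drug metabolism by cytochrome P450 was at -0.40 (9 of 24 lower, 2 higher), with Fmo1, Gstm1 and Gstt1 (25.3 FPKM in CTL and 12.8 FPKM in Ti). Propanoate metabolism was at -0.42 (6 of 25 lower, none higher), with Aldh6a1 (14.6 FPKM in CTL and 6.73 FPKM in Ti) and Pcca (26.2 FPKM in CTL and 13.7 FPKM in Ti), which take part in the breakdown of branched-chain amino acids. Receptor ligand activity was at -0.49 (7 of 19 lower, 4 higher) and was split at 2-fold, with 4 lower and 4 higher. Its lowest genes were Igf2, Sfrp2, Gas6 and the angiotensin precursor Agt (12.5 FPKM in CTL and 4.56 FPKM in Ti). Chemorepellent activity was at -0.53, with Sema3a and Flrt3 (5.36 FPKM in CTL and 2.13 FPKM in Ti).

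A set of 7 genes was listed at 0 in 1 library and at 2 FPKM or more in the other. Gm14819 and Gm14632 were each at 7 FPKM in CTL and listed at 0 in Ti, and the histone gene H3c15 was at 3.88 FPKM and 0. Gm10058 (9.70 FPKM), Gm10487 (3.64 FPKM), LOC100039029 (3.66 FPKM) and the histone gene H3c14 (3.58 FPKM) were listed at 0 in CTL. H3c15 and H3c14 encode the same histone, and the Gm genes belong to families of near-identical copies, so a 0 can mean that reads were placed on another copy. In Ti+Se-Met H3c14 was listed at 0 and H3c15 at 2.85 FPKM, as in CTL and unlike Ti.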

How the data were processed

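RNA was taken with TRIzol from 3 cultures of MC3T3-E1 cells, 1 library per condition, prepared with a NEBNext kit and sequenced on an MGI T7 instrument. The authors removed adapter-containing and low-quality reads, mapped the rest with HISAT2 and sorted them with SAMtools. The submitters' processing notes also name StringTie and the mouse build mm9, while the study's methods name HTSeq as the counter. How the deposited FPKM values were made from the reads is not given in the sources used here. Each library's FPKM is relative to its own total and is rounded in the file.

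From the deposited FPKM values of CTL and Ti, log2(FPKM + 1) ratios were computed for genes at 1 FPKM or more in either library. With 1 library per condition no test was run and no p-value is given. Depth was estimated from the steps between low values, since a whole fragment in a transcript of known length gives a fixed FPKM. Of the low values of single-transcript genes, 59% (CTL) and 53.3% (Ti) lay within 0.09 fragments of a step, against 18% by chance, and the estimates were 14250000 fragments (13650000 to 14800000) and 15100000 (14350000 to 15650000). Each fold has an exact conditional binomial interval based on these fragments. Transcript lengths were those of GENCODE transcripts (GRCm38.p6), a different build from that of the files. They were matched by RefSeq accession, averaged over the transcripts of a gene, and found for 98.1% of the genes described. List medians were also centred on genes of like length, and lists were also counted over genes at 1 FPKM or more in both libraries, both alternatives chosen after seeing the data.

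Gene lists and the choice of genes were made with earlier results of these data known. Named are the 15 largest rises and falls at a mean of 5 FPKM or more, the 10 largest gains and losses in FPKM, up to 4 members per direction of each list at a mean of 2 FPKM or more, up to 4 genes of each term, lineage markers, and genes listed at 0 in 1 library and at 2 FPKM or more in the other. Alpl, Fos, Fosl2, Jun and Runx2, and list members that passed in 1 library alone, were added after their values were seen. Terms were ranked separately by kind, 5 per direction, leaving out 12 that the study drew, disease pathways and terms sharing most genes with one already taken. Pseudocounts of 0.1 and 5, other filters, thresholds and 3 scalings were tried. Scripts were tested on simulated data. Python 3.11.15, numpy 2.4.6, pandas 2.3.3, scipy 1.17.1 and matplotlib 3.10.9 were used.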

Additional observations from a re-analysis of the deposited data

How the results depend on the processing

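No paired analysis was possible because CTL and Ti had 1 library apiece, and no library could be left out. At the 2-fold threshold, 404 genes were higher and 405 lower in Ti. These became 577 and 665 with 0.1 added to each FPKM, and 160 and 173 with 5 added. A mean of at least 5 FPKM gave 340 and 283, and no filter gave 404 and 405, since a gene below 1 FPKM in both libraries cannot reach 2-fold on the log2(FPKM + 1) scale. The 1.5-fold threshold gave 1724 and 1258 and the 4-fold threshold 26 and 31, by construction. Rescaling to the same sum gave 230 higher and 863 lower, median-of-ratios scaling 274 and 487, and upper-quartile scaling 266 and 492. These scalings shifted the median of all genes by -0.21, -0.09 and -0.09 on the log2 scale, which by construction moves genes across both thresholds. The 30 largest rises and falls stayed past 2-fold with both pseudocounts and all 3 scalings. Of 51 gene list medians, 50 moved by less than 0.2 on the log2 scale with 0.1 added, 46 with 5 added, all 51 with the 3 scalings, with the higher filter and with 1 FPKM required in both libraries, and 46 when centred on genes of like length, and none whose size was over 0.25 changed sign. The 5 that moved with 5 added were the immediate early genes, ERK output, complement (each given above), proteoglycans (-0.65) and contractile genes (-0.69), and contractile genes also moved with 0.1 added (-1.48). The 5 that moved with length were the cytosolic ribosomal proteins, splicing factors, the respiratory chain, the insulin-like growth factor axis and collagens, each given above with both values. Depth limits the low genes, as 1 fragment on a transcript of 1 kilobase was worth about 0.07 FPKM.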
